A study of Mus musculus with 3 samples.

Results

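The nuclei described here are 248 mesenchymal nuclei of the newborn mouse aortic valve region that carry RNA of Ctnna2 and Abi3bp. They were chosen by their own counts. A nucleus was a member when it held at least 1 UMI (a tagged RNA molecule) of Ctnna2, at least 1 of Abi3bp and at least 4 in all of Ctnna2, Abi3bp and Col12a1, and stayed under limits on genes of other cells: Rmst, Pcdh15, Adamts19, Rnf43 and Kirrel3 (under 0.2% of UMIs), Ryr2, Ttn, Myh6 and Tnnt2 (under 0.5%), Pecam1, Cdh5 and Ptprb (at most 1 UMI), Myh11 and Itga8 (at most 2), and Msln, Upk3b and Muc16 (at most 1). Of 14073 nuclei kept with at least 1000 UMIs and at most 5% mitochondrial UMIs, out of 21140 deposited, 121 in pool 1, 80 in pool 2 and 47 in pool 3 were members. Because the rule reads these genes, their levels are given as a description with no test.

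All samples belonged to 1 group. Aortic valve structures of mouse pups at postnatal day 1 were frozen and pooled in 3 replicates of 22 to 24 aortic roots each. The strain was B6.Cg-Scx<tm1.1(EGFP)Skom, in which EGFP marks the gene of scleraxis (Scx), a tendon-associated transcription factor. No untreated or wild-type group was analysed here, the zygosity of the pups is not given in the sources used here, and each pool mixes many pups. RNA of single nuclei was read with the gene expression library of the 10x Multiome assay.

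Valve interstitial cells are the mesenchymal cells inside the leaflets, and they lay down the collagen-rich, proteoglycan-rich and elastin-rich layers that let a leaflet bend and bear load. Around birth the soft hyaluronan and versican matrix of the embryonic cushion is being remodelled into these layers. Small leucine-rich proteoglycans bind collagen fibrils and set their width and spacing, and minor collagens such as types V, XI and XII start or coat the fibrils.

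Members made up 1.71% of the kept nuclei in pool 1 (Wilson 95% interval 1.43 to 2.04), 2.46% in pool 2 (1.98 to 3.05) and 1.25% in pool 3 (0.944 to 1.66), a mean of 1.81% ± 0.609 (SD, n = 3 pools). With every nucleus thinned to 1000 UMIs before the rule was applied, the share was 1.25% ± 0.225. Their summed depth was 476323, 310414 and 123137 UMIs, and the median member held 3880, 3790 and 2350 UMIs in pools 1, 2 and 3, so values from pool 3 rest on the fewest molecules. The intervals cover counting error only.

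The rule left out more nuclei than it kept. Of 970 kept nuclei with both Ctnna2 and Abi3bp, 846 reached 4 UMIs, and 248 of these, 29.3%, were members. The limit on the Rmst group alone left out 106 nuclei, that on smooth muscle genes alone 117, that on endothelial genes alone 63, that on cardiomyocyte genes alone 19 and that on mesothelial genes alone 13. Nuclei left out by the smooth muscle limit or by the endothelial limit alone were deeper, with medians of 5973 and 6061 UMIs against 3522 in the members. At the edges, 40 members held 4 to 6 UMIs of the 3 genes and showed 534 CPM of Ctnna2 and 609 CPM of Abi3bp, where CPM is counts per 1000000 UMIs summed over the nuclei, while the 7 nuclei with 3 UMIs showed 277 and 381 CPM. Along the Rmst limit, the 51 members at 0.1 to 0.2% showed 1494 CPM of Ctnna2 and 832 CPM of Adamts19, and the 12 nuclei just outside, at 0.2 to 0.3%, showed 1332 and 1471 CPM.

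The label was set beside marker genes. Each of the 248 members held a UMI of Col1a1, Col1a2 or Col3a1, and 73 of them (29.4%) held one of Pdgfra. These shares were counted without thinning and in no background class, so they cannot decide whether the label holds. Cardiomyocyte-type nuclei held 1263 CPM of the mesenchymal and matrix markers. The 9 mesenchymal and matrix markers summed to 12504 CPM ± 915 in members against 6537 ± 1568 in all other kept nuclei, but the sum was higher in Rmst-type (16428), fibroblast-type (15956) and mesothelial-type nuclei (22989), so it does not set the members apart from these. The chondrocyte markers summed to 77.7, 64.4 and 0 CPM in the members of pools 1, 2 and 3, with Matn1 and Snorc at 0, against means of 7.32 in Rmst-type, 18.6 in fibroblast-type and 69.1 in all other kept nuclei. Of the osteoblast markers Bglap, Sp7, Ibsp and Dmp1, 0 UMIs were found in members, and the tenocyte markers Tnmd, Scx, Mkx and Kera summed to 6.58 CPM ± 2.91, with Tnmd at 0. Where the nuclei lay in the leaflet or root was not measured. Scrublet's highest scores, used to mark likely doublets, fell on 4, 3 and 0 members in pools 1, 2 and 3. The pools shared 44 to 99 barcodes in pairs, 0 of them between members.

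Ctnna2 encodes alpha-N-catenin, which ties cadherins to actin and is best known in neurons. It stood at 1696, 1785 and 1787 CPM in the members of pools 1, 2 and 3, against a mean of 69.2 CPM in all other kept nuclei. Abi3bp encodes a secreted protein of the extracellular matrix and stood at 4818, 3904 and 3882 CPM against 281. Col12a1, the chain of the fibril-coating collagen XII, stood at 418, 480 and 568 CPM against 68.3. Members were above the other nuclei in every pool. The rule requires a UMI of Ctnna2 and of Abi3bp, and counts Col12a1 only toward the sum.

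Col11a1 and Robo2 were listed with these genes as markers of the nuclei but are not in the rule. Col11a1, a chain of the minor fibrillar collagen XI, stood at 290, 203 and 187 CPM in members, a mean of 226 CPM ± 55.4 against 31.4 ± 0.763 in other kept nuclei. Robo2, a receptor of Slit guidance proteins, stood at 2047, 2403 and 2225 CPM, a mean of 2225 CPM ± 178 against 249.7 ± 28.9. With each nucleus thinned to 1000 UMIs, a Robo2 UMI was present in 62.3% ± 2.38 of members, 43.6% ± 2.01 of the Rmst-type and 44.8% ± 4.13 of the fibroblast-type nuclei defined further on, and 4.42% ± 1.44 of cardiomyocyte-type nuclei, taken as a background class because free RNA itself was not measured. Without thinning these shares were 79.7%, 64.9%, 67.9% and 10.3%, at median depths of 3522, 3538.5, 3745 and 5242 UMIs. Col11a1 was present in 17.1% ± 3.81 of thinned members, 4.04% ± 2.29 of Rmst-type, 10.1% ± 1.01 of fibroblast-type and 0.634% ± 0.344 of cardiomyocyte-type nuclei, and without thinning in 29.96%, 9.21%, 22.9% and 2.81%.

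**Figure D1:**
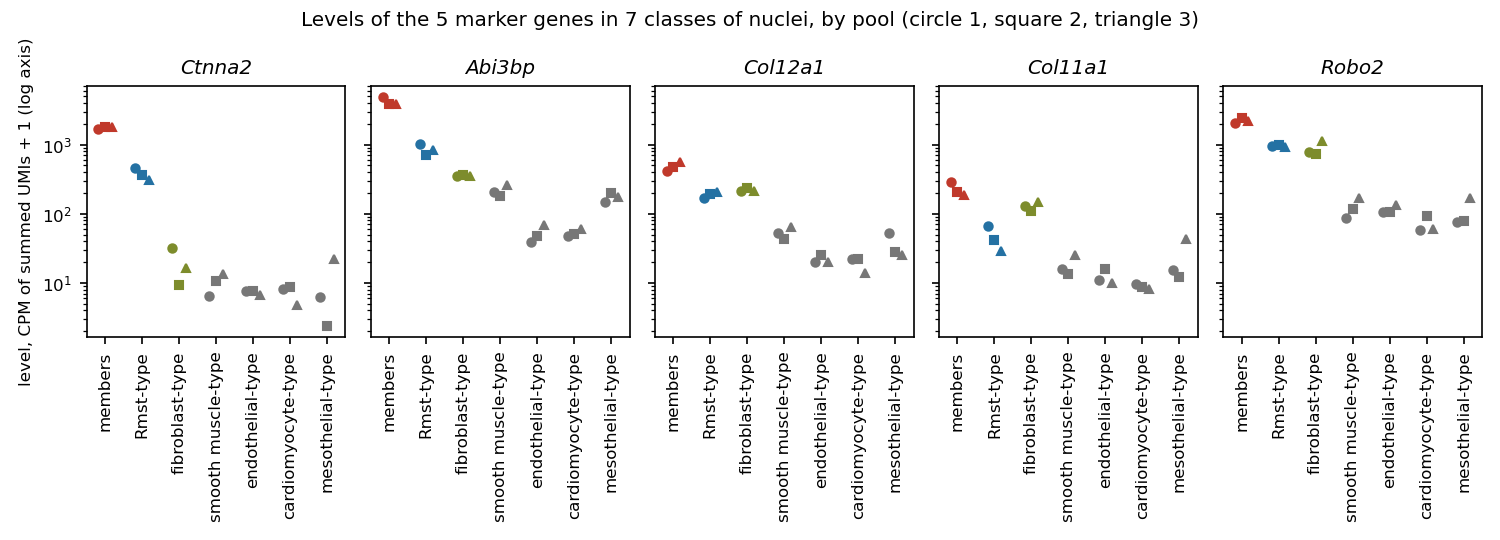
Level of the 5 marker genes Ctnna2, Abi3bp, Col12a1, Col11a1 and Robo2 (CPM of summed UMIs plus 1, log axis) in members and 6 other classes of nuclei, 1 mark per pool. The members of all 3 pools lie above every other class for each gene, from 187 CPM of Col11a1 in pool 3 to 4818 CPM of Abi3bp in pool 1.

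Members differed widely among themselves in these genes. In pool 1 a member held from 1 to 43 UMIs of Ctnna2 with a median of 4, from 1 to 135 of Abi3bp with a median of 10, and from 0 to 65 of Robo2 with a median of 5. These counts are not scaled for depth, and the members of pool 1 held 1100 to 10893 UMIs in total. Col12a1 was not detected in 61, 37 and 25 members of pools 1, 2 and 3, and Col11a1 not in 87, 51 and 35. All 5 of these marker genes were detected in 49 members, 4 in 77, 3 in 99 and 2 in 23. Of the 75 members with a Col11a1 UMI and the 173 without, at median depths of 3530 and 3514 UMIs, Fmod was detected in 45.3% and 24.9% and Col1a1 in 93.3% and 78.6%. Robo2 was detected in 86.7% and 78.03% of them, Pdgfra in 32.0% and 28.3%, Meox1 in 32.0% and 33.5%, Postn in 89.3% and 89.02%, and Dlg2 in 82.7% and 85.5%. Col12a1, which the rule counts, was detected in 73.3% and 40.5%. These are counts of nuclei, and nuclei of 1 pool are not replicates.

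Beyond the rule, the 15 genes with the highest fold over all other kept nuclei in the lowest of the 3 pools were Caln1, Robo2, Cyp26a1, Gm32342, Meox1, Col11a1, Igsf10, Fmod, Prr16, Matn4, Dlg2, Prelp, Sertad4, Dnm1 and P2ry1. They include fibril and matrix genes (Col11a1; the proteoglycans Fmod and Prelp; the matrilin Matn4), a homeobox factor (Meox1), an enzyme that breaks down retinoic acid (Cyp26a1) and genes best known in neurons (Caln1, a calcium sensor, and Dlg2, a synaptic scaffold). Caln1 stood at 67.2, 90.2 and 56.8 CPM in members against 4.35 in other nuclei, a fold (with 1 CPM added to both) of 12.5 to 14.5. Dlg2 stood at 1631, 1804 and 1470 CPM against 259. Fmod stood at 233, 226 and 73.1 CPM against 27.8, and Matn4 at 79.8, 70.9 and 24.4 CPM against 6.21. For Fmod and Matn4 the members of pool 3 were well below those of the other pools, although their fold over pool 3's own other nuclei was 5.13 and 5.02. Against the Rmst-type nuclei set out further on, Fmod, Meox1 and Dlg2 were higher in members. Prelp and Matn4 did not pass that test. The limit on the Rmst group acts on the sum of 5 genes. Of these, Adamts19 stood at 290 CPM in members and 297 in other nuclei, and Kirrel3 at 159.6 and 145. Rmst stood at 8.96 CPM against 50.2, Pcdh15 at 26.4 against 345, and Rnf43 at 0 against 15.9. The nuclei left out by the Rmst limit alone held 3712 CPM of Adamts19.

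**Figure D2:**
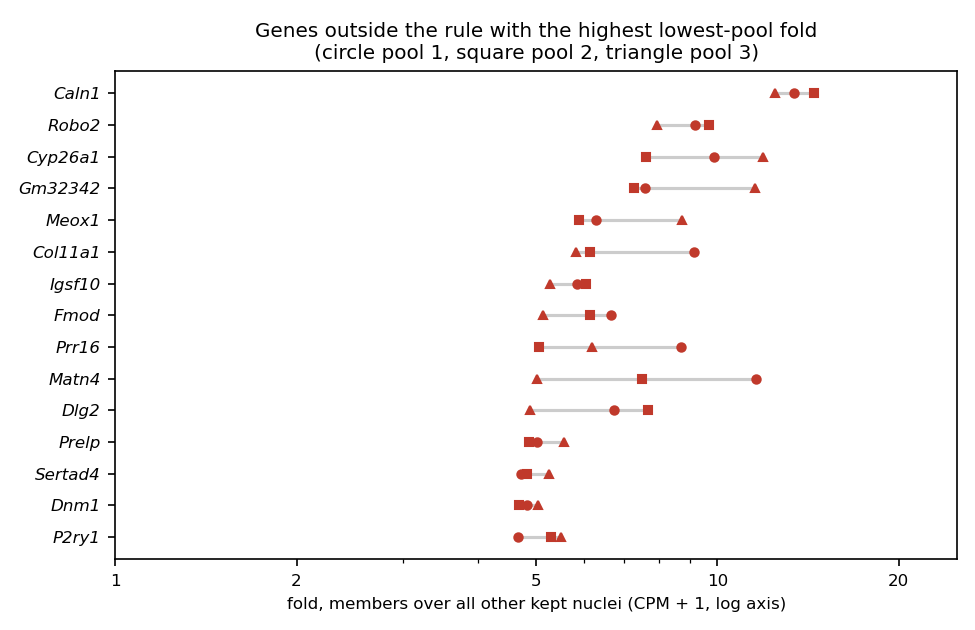
Fold of members over all other kept nuclei (CPM plus 1, log axis) for the 15 genes outside the rule that lead by the lowest pool, 1 mark per pool joined by a line. Caln1 leads at 12.5 to 14.5, and Matn4 spreads most widely on this axis, from 5.02 to 11.6.

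Members were then set against the 2 classes of mesenchymal nuclei most like them. Rmst-type nuclei, the other valve interstitial type, were the 468 kept nuclei (181, 98 and 189) with the Rmst gene group at 0.2% of UMIs or more. They also held at least 4 UMIs of the group and at least 2 of its genes. Nuclei that also met the members' counts of Ctnna2, Abi3bp and Col12a1 stayed in this class. Without these doubly positive nuclei it held 143, 75 and 161 nuclei. Fibroblast-type nuclei were the 473 (217, 111 and 145) with at least 4 UMIs of Abca8a, Lepr and Ebf2 and at least 2 of these genes. Their Rmst group was under 0.2%, and members were left out. The members had no limit on Abca8a, Lepr and Ebf2, so a nucleus meeting both rules counted as a member. Both classes passed the members' limits on cardiomyocyte, endothelial, smooth muscle and mesothelial genes. UMIs were summed per class and pool and tested with edgeR with pool as a block, leaving out every gene of a gate, Col11a1, Robo2 and mitochondrial genes. The 2 comparisons share the member sums, and the classes were drawn from nuclei whose earlier clustering used all genes, so the p-values measure spread between pools and give no independent evidence that the classes exist. Median UMI totals were close (3522, 3538.5 and 3745), but members had a median of 1.005% mitochondrial UMIs against 0.637% and 0.642%.

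Against Rmst-type nuclei, 5 of 8 fibrillar collagen genes and 5 of 9 small leucine-rich proteoglycan genes were higher in members, and 14 of 28 Wnt genes and 5 of 8 hyaluronan and versican matrix genes were lower. Of 8406 genes tested, 560 were higher in members (6.66%) and 457 lower (5.44%), 12.1% in all. Aspn, which encodes the collagen-binding proteoglycan asporin, stood at 487, 480 and 414 CPM in members against 48.0, 37.8 and 41.9 (log2 fold 3.38, SE 0.17, adjusted p 2.42e-13). Vcan, the large cushion proteoglycan versican, stood at 997, 821 and 877 CPM against 2882, 2620 and 2823 (log2 fold -1.67, SE 0.12, adjusted p 2.69e-11). For both genes the pools of the 2 classes did not overlap.

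Among small leucine-rich proteoglycans, 5 of 9 tested genes were higher in members and 2 lower, with a median log2 fold of 1.97 against 0.00 over all genes tested. Aspn, Ecm2, Ogn, Fmod and Epyc rose. Fmod, fibromodulin, a regulator of fibril growth, stood at 233, 226 and 73.1 CPM against 37.6, 75.6 and 31.4 (log2 fold 1.97, SE 0.26, adjusted p 2.19e-06), so its member value in pool 3 lay within the range of the Rmst-type pools while each pool kept the direction. Epyc, epiphycan, had 19 UMIs in members and 1 in Rmst-type nuclei, a ratio of 36.9 per UMI sequenced (counting interval 5.86 to 1533), and its adjusted p of 0.0161 became 0.1002 without pool 2 and 0.0797 without pool 3. Lum and Dcn, lumican and decorin of the same family, fell: Dcn stood at 1274, 1695 and 918 CPM against 2279, 3405 and 1812 (log2 fold -0.97, SE 0.11, adjusted p 8.71e-08).

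Among fibrillar collagens 5 of 8 tested genes were higher in members and 0 lower (median log2 fold 0.57). Col24a1, a minor fibrillar collagen, stood at 115, 248 and 406 CPM against 12.98, 7.09 and 38.4 (log2 fold 3.47, SE 0.32, adjusted p 6.10e-09). Its level rose clear of the Rmst-type pools in each pool, but differed by a wide margin between the members of the 3 pools. Col27a1 rose by a log2 fold of 0.94, and the major chains Col1a1 (0.57) and Col1a2 (0.56) rose less. Col5a1 had a log2 fold of 0.58. The calls for Col1a1 and Col5a1 were lost without pool 3 (adjusted p 0.162 and 0.176), and that for Col5a1 also without pool 1 (0.0905). Col3a1 (log2 fold 0.07, adjusted p 0.834) and Col5a2 (-0.24, adjusted p 0.204) did not pass the test.

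In the hyaluronan and versican group 1 of 8 tested genes was higher and 5 were lower (median log2 fold -1.09). The higher call, Cemip2, was lost when any 1 pool was left out (adjusted p 0.0571 to 0.531). Hapln1, the link protein that holds versican on hyaluronan, stood at 29.4, 22.6 and 24.4 CPM against 125, 109 and 150.1 (log2 fold -2.27, SE 0.30, adjusted p 2.61e-06). Cd44, a hyaluronan receptor, fell by 1.14 on the log2 scale. Has2, which makes hyaluronan, had a log2 fold of -1.05 with an adjusted p of 0.0445, and leaving out any 1 pool took that p to between 0.0763 and 0.189. Tnfaip6, whose product modifies hyaluronan, had a log2 fold of -1.47, and its call was lost without pool 2 (adjusted p 0.282).

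Elastic fibre genes were split, with 6 of 16 higher and 6 lower. Eln, elastin, stood at 3586, 2767 and 2022 CPM in members against 1499, 1692 and 852 (log2 fold 1.04, SE 0.12, adjusted p 1.62e-07). Ltbp2 rose by 1.27 and Fbn2, fibrillin-2, by 0.73 on the log2 scale, while Fbln1, Fbln2, Mfap2, Ltbp3, Ltbp4 and Efemp1 fell. Each of these 6 lower calls was lost without pool 2 (adjusted p 0.0526 to 0.262). Of the matricellular genes 7 of 18 were higher and 1, Postn, was lower (2414, 2432 and 2688 CPM against 4033, 4728 and 4019). Of the 7 higher calls 3, Thbs4, Ccn1 and Ccn4, held with any 1 pool left out. Thbs4, thrombospondin-4, had 25 UMIs in members and 0 in Rmst-type nuclei, at least 16.2-fold higher against a floor of 3 UMIs over the class (adjusted p 0.000323). Collagen processing genes counted 6 of 22 higher and 1 lower, of which 2 higher calls held with any 1 pool left out: Adamts3, a procollagen protease (73.4 CPM ± 23.1 against 9.66 ± 9.63), and P4ha3, a collagen prolyl hydroxylase subunit (142 ± 12.4 against 50.7 ± 10.7).

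**Figure D3:**
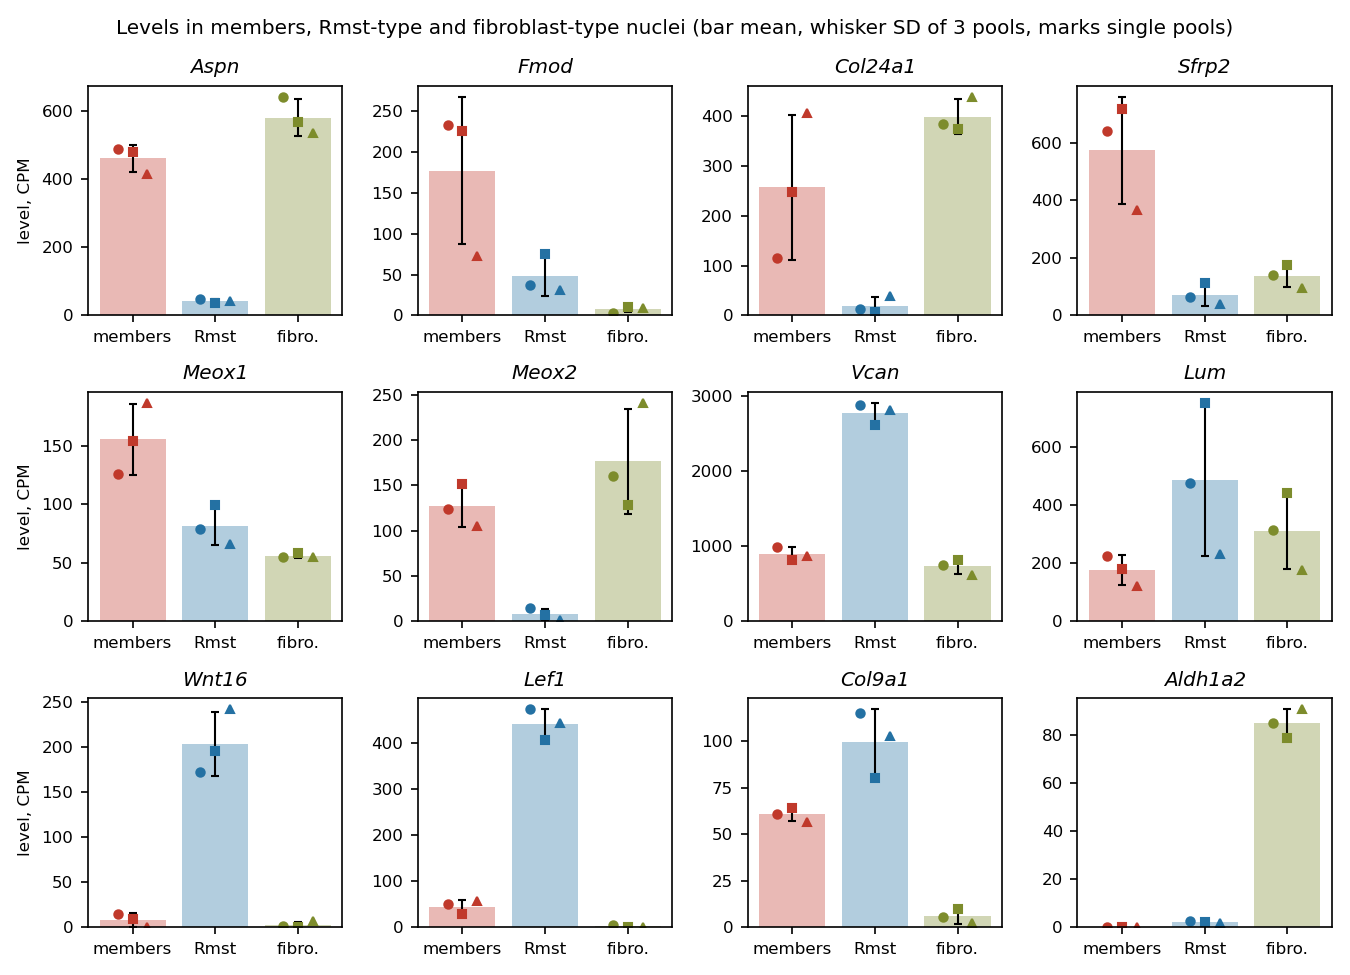
Level (CPM) of 12 genes in members, Rmst-type and fibroblast-type nuclei, with bars for means, whiskers for SD and marks for the 3 pools. Aspn, Col24a1 and Meox2 are lowest in Rmst-type nuclei, Sfrp2 is highest in members at 575 CPM, and Aldh1a2 is at 0 in the members of all 3 pools.

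The Wnt list had the most genes lower in members: 14 of 28 tested were lower and 3 higher, with a median log2 fold of -0.77. Rnf43, itself a Wnt pathway gene, is in the limit that separates the 2 classes and was not tested. Wnt16, a ligand, stood at 14.7, 9.66 and 0 CPM in members against 173, 196 and 243 (log2 fold -4.13, SE 0.35, adjusted p 1.57e-09). Lef1, the transcription factor that carries the Wnt signal, stood at 50.4, 29.0 and 56.8 CPM against 474, 406 and 443 (log2 fold -3.38, SE 0.21, adjusted p 5.72e-12). Axin2, a feedback target, stood at 10.97 CPM ± 9.50 against 67.3 ± 13.7, and Rspo3, which strengthens Wnt signals, at 65.3 ± 36.4 against 597 ± 156. The 3 genes that rose were secreted antagonists. Sfrp2 stood at 640, 718 and 365 CPM against 64.9, 113 and 38.4 (log2 fold 3.02, SE 0.17, adjusted p 1.15e-12), Frzb at 50.5 ± 19.5 against 4.83 ± 4.82, and Sfrp1 at 187 ± 43.4 against 82.98 ± 28.4. A further antagonist, Wif1, went the other way, at 14.5 CPM ± 12.6 against 144 ± 54.1.

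Of TGF-beta and BMP genes 1 of 27 was higher (Bmp4) and 3 were lower (Bmp5, Bmp6 and Bmper). The share called, 14.8%, was near the 12.1% of all genes tested. Bmp6 stood at 239 CPM ± 57.3 in members against 532 ± 58.5. Of Notch genes 4 of 9 were higher, among them the ligand Jag1 (53.9 CPM ± 40.7 against 11.9 ± 8.66), and Notch2 was lower, and 2 of the 4 higher calls held with any 1 pool left out. Of growth factors and their receptors 8 of 23 were higher and 4 lower, and 3 and 4 of these held with any 1 pool left out. The receptor gene Egfr stood at 290, 477 and 601 CPM against 105, 102 and 52.4 (log2 fold 2.25, SE 0.24, adjusted p 4.29e-08). Igf1, insulin-like growth factor 1, stood at 432, 480 and 211 CPM against 1630, 1940 and 1473 (log2 fold -2.15, SE 0.14, adjusted p 9.92e-12).

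Of 31 transcription factors linked to valve development, 11 were higher in members and 5 lower. Meox2, a homeobox factor, stood at 124, 151 and 106 CPM against 14.3, 7.09 and 1.75 (log2 fold 3.94, SE 0.39, adjusted p 1.38e-08). Its relative Meox1 stood at 156 CPM ± 30.4 against 81.6 ± 16.6 (log2 fold 0.82), a call that was lost without pool 3 (adjusted p 0.0939). Of the 11 higher calls 6 held with any 1 pool left out. Nfatc1, known for its role in valve endocardium, stood at 202, 139 and 292 CPM against 79.2, 78.0 and 80.3 (log2 fold 1.31, SE 0.20, adjusted p 2.25e-05). Zeb1, a repressor active in epithelial to mesenchymal transition, stood at 1111, 963 and 1332 CPM against 2739, 2306 and 3137 (log2 fold -1.31), and Id4, Tbx3, Msx1 and Gata4 also fell. The call for Msx1 was lost without pool 1 (adjusted p 0.225). Sox9, the cartilage and valve factor, had a log2 fold of -0.22 (adjusted p 0.600).

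Adhesion and guidance genes marked both classes, each with its own set. Of the catenins and cadherins 6 of 19 were higher in members and 0 lower, and 4 of the 6 held with any 1 pool left out. Ctnna3, the alpha-T-catenin relative of Ctnna2, stood at 1304, 1398 and 1161 CPM against 440, 262 and 484 (log2 fold 1.72, SE 0.15, adjusted p 3.29e-09), and Cdh3, P-cadherin, at 57.3 ± 7.95 against 6.63 ± 4.41. Of the genes best known for neuronal adhesion and synapses 14 of 27 were higher and 6 lower (median log2 fold 1.15), with Dlg2 up by 1.40 and Opcml, an adhesion molecule of neurons, down by 4.03 on the log2 scale, and 7 of the 14 higher calls held with any 1 pool left out. Among guidance genes 8 of 29 were higher and 8 lower. Slit3, a Robo ligand, stood at 542, 751 and 455 CPM against 92.1, 116 and 29.7 (log2 fold 2.88, SE 0.24, adjusted p 1.37e-09). Slit2, its close relative, went the other way, at 390, 583 and 495 CPM against 1331, 1181 and 1557 (log2 fold -1.50, SE 0.15, adjusted p 1.91e-08). The receptor Robo1 rose by 1.12 on the log2 scale.

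Of the other lists, basement membrane genes counted 4 of 18 higher and 1 lower, matrix proteases and their inhibitors 4 of 19 higher and 4 lower, glycosaminoglycan synthesis 6 of 20 and 2, integrins 2 of 16 and 2, tendon genes 3 of 8 and 2, cartilage genes 0 of 8 and 3, fibril-associated and microfibril collagens 2 of 8 and 1, contractile and YAP or serum response genes 5 of 17 and 0, bone and mineral genes 1 of 4 and 0, and congenital or calcific valve disease genes 5 of 18 and 1. With any 1 pool left out, 2 of the 4 higher basement membrane calls, 2 of the 4 lower protease calls, 1 of the 2 higher integrin calls, 1 of the 2 lower tendon calls, 1 of the 3 lower cartilage calls, 2 of the 5 higher disease calls and 0 of the contractile, bone and lower fibril-associated calls held. Col4a2, Col15a1, Adamts5, Acta2, Fbn1 and Ank were among those lost without pool 1 (adjusted p 0.0551 to 0.638). Itgbl1, an integrin-like secreted protein, stood at 375 CPM ± 110 against 48.5 ± 20.4 in the integrin list. Hs6st3, a heparan sulfate sulfotransferase, stood at 152 CPM ± 75.03 against 18.5 ± 7.83.

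The genes with the largest rise by the naming rule were Thbs4, Epyc, Dpep1, Vgll3, Meox2, Dapk2, Pcdh19, Angptl1, Fgd5 and A630012P03Rik. Vgll3, a partner of TEAD transcription factors, stood at 33.6, 54.8 and 40.6 CPM in members against 2.60, 0 and 3.49 (log2 fold 4.004, SE 0.56). Dpep1, a membrane dipeptidase, had 16 UMIs against 1, a ratio of 31.1 (counting interval 4.83 to 1303), and Pcdh19, a protocadherin, 27 against 3, a ratio of 17.5 (5.38 to 90.01). The call for Dapk2, a kinase linked to cell death, was lost without pool 1 (adjusted p 0.0872). The largest falls were Esyt3, Pde11a, Sez6l, Egfem1, Nav3, LOC115487471, Megf11, Gm34486, Lypd6 and Prxl2a. Esyt3 had 0 UMIs in members and 91 in Rmst-type nuclei, at least 15.6-fold lower, and Pde11a, a phosphodiesterase, 2 against 252, a ratio of 64.9 in favour of Rmst-type nuclei (17.8 to 539). Nav3, neuron navigator 3, stood at 90.3, 38.7 and 56.8 CPM against 1601, 1137 and 2152 (log2 fold -4.72, SE 0.30). The call for Gm34486, with 1 UMI in members, was lost without pool 2 (adjusted p 0.053).

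Markers of other cells moved with this comparison. Of 5 tested cardiomyocyte markers 4 were higher in members (Myh7, Myl7, Tnni3 and Actc1), and the 9 markers, 4 of them limited by the rule, summed to 1470, 1839 and 707 CPM in members against 660, 841 and 433 in Rmst-type nuclei, where cardiomyocyte-type nuclei held 36674. Of 4 smooth muscle markers 2 were higher (Myocd and Acta2), with a sum of 652 CPM ± 209.5 against 421 ± 58.6. Of 4 pericyte markers 3 were higher and 1, Abcc9, lower. Of 2 tested endothelial markers 1, Tek, was higher (log2 fold 1.73, SE 0.25, adjusted p 1.02e-05), a call that held with any 1 pool left out, and the 10 markers summed to 309.5 CPM ± 36.6 against 180.2 ± 51.9. The melanocyte marker Mitf was higher, with Tyrp1 and Mlana at 0 in both classes, and of 4 tested haemoglobin genes 1, Hba-a2, was higher. The calls for Myh7, Actc1, Acta2, Myocd and all 3 higher pericyte markers, Cspg4, Rgs5 and Notch3, were lost without pool 1 (adjusted p 0.0523 to 0.494) and those for Hba-a2, Myocd and Rgs5 without pool 2 (0.0981 to 0.177). The part of these cells' RNA in the other differences was not tested.

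**Figure D4:**
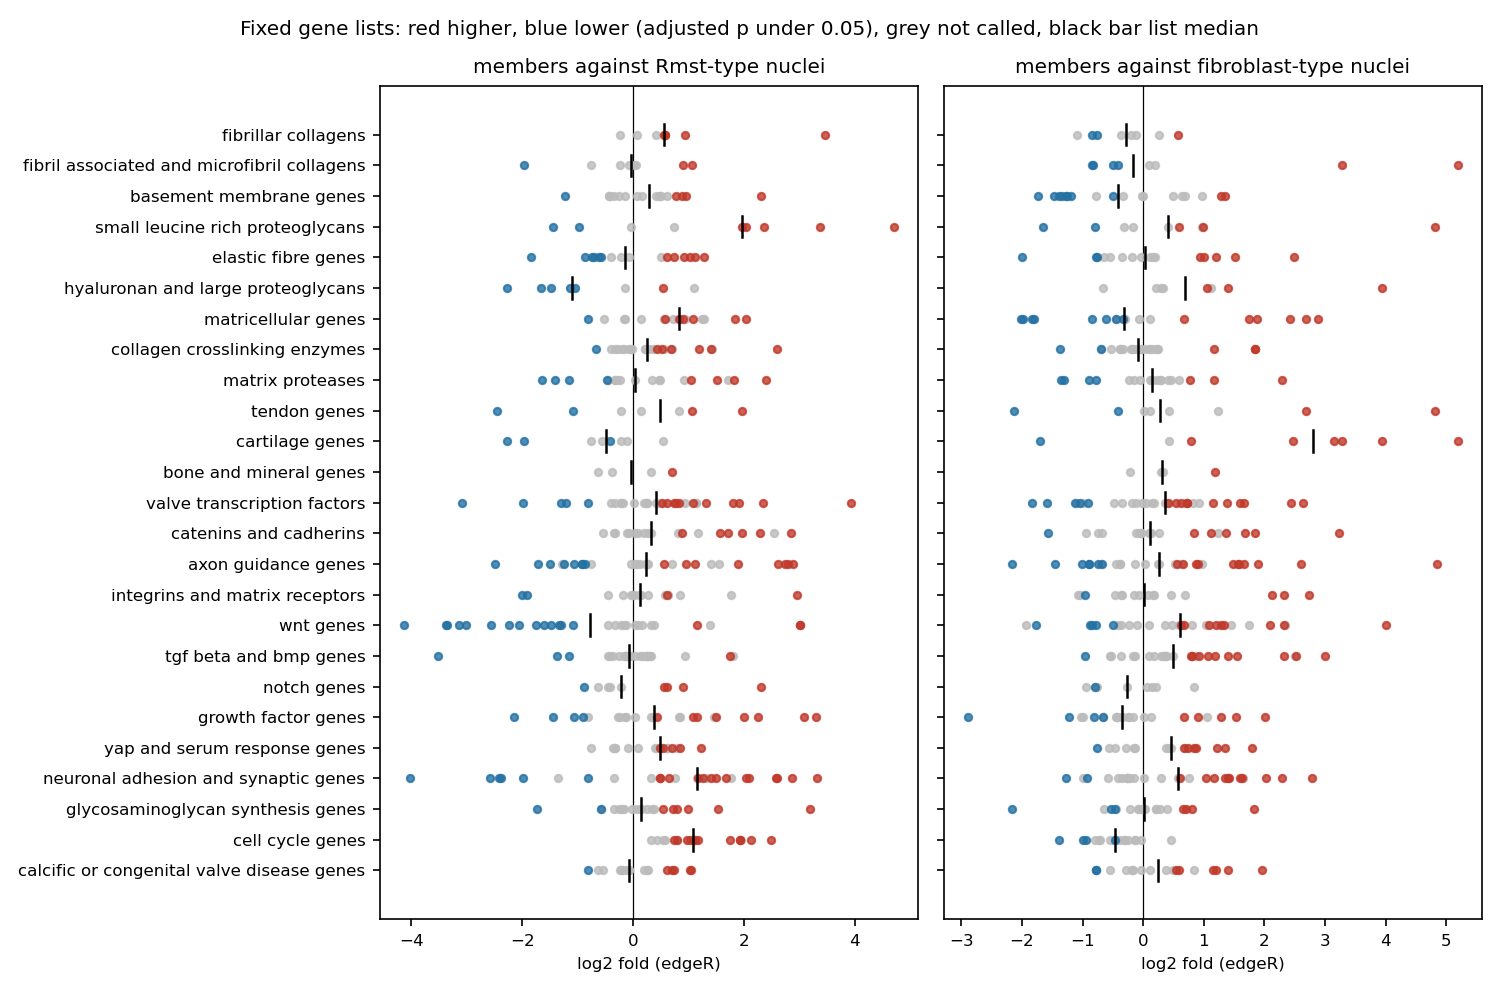
Log2 fold (edgeR) of each tested gene of 25 lists, members against Rmst-type nuclei on the left and against fibroblast-type nuclei on the right, with called genes in red (higher) and blue (lower), others in grey and the list median as a bar. Small leucine-rich proteoglycans have a median of 1.97 on the left, the Wnt list one of -0.77 on the left and 0.61 on the right, and the cartilage list one of 2.81 on the right.

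Against fibroblast-type nuclei, 6 of 8 cartilage-associated genes and 10 of 27 TGF-beta and BMP genes were higher in members, as were Thbs1 and Fmod, and 8 of 18 basement membrane genes were lower. The Wnt list was split, with 9 of 28 higher and 5 lower. Of 8406 genes tested, 453 were higher in members (5.39%) and 408 lower (4.85%), 10.2% in all. With DESeq2 in place of edgeR 301 were higher and 175 lower, which moved the higher share of the calls from 52.6% to 63.2%. With no filter on low counts 449 were higher and 528 lower, a higher share of 46.0%. Without pool 1 268 were higher and 196 lower, and without the replicate block 319 and 234. The gate genes Abca8a, Lepr and Ebf2 were kept out of the test, and the 3 fibroblast markers tested, Pi16, Dpt and Cd34, were lower in members. The calls for Pi16 and Cd34 were lost without pool 2 (adjusted p 0.331 and 0.244), and that for Pi16 also without pool 1 (0.0893).

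Of 8 tested cartilage-associated genes 6 were higher in members and 1 lower, with a median log2 fold of 2.81 against -0.01 over all genes tested. Col9a1, a collagen IX chain, stood at 60.9, 64.4 and 56.8 CPM against 5.50, 10.04 and 2.21 (log2 fold 3.29, SE 0.40, adjusted p 9.87e-07). Col9a3, its partner chain, had 26 UMIs in members and 1 in fibroblast-type nuclei, a ratio of 55.98 (counting interval 9.196 to 2295), and Hapln1 24 against 3, a ratio of 17.2 (5.23 to 89.4). Matn4 stood at 79.8, 70.9 and 24.4 CPM against 5.50, 13.4 and 2.21, and Sox6, a partner of Sox9 in cartilage, at 913, 660 and 650 CPM against 134, 105 and 184 (log2 fold 2.47, SE 0.17, adjusted p 3.49e-11). Sox5 rose and Matn2 fell, and all 7 calls of this list held with any 1 pool left out. Sox9 itself did not pass the test (120 CPM ± 16.7 against 91.2 ± 11.3, adjusted p 0.240), and the other 12 of the 20 genes, among them Acan and Col2a1, did not pass the filter on low counts. Against Rmst-type nuclei Col9a3, Hapln1 and Sox5 were lower in members, with the Col9a3 call lost without pool 1 (adjusted p 0.0588) and the Sox5 call without any 1 pool (0.0581 to 0.144).

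Small leucine-rich proteoglycans were split, with 3 of 9 higher and 2 lower. Fmod stood at 233, 226 and 73.1 CPM against 3.30, 10.04 and 8.85 (log2 fold 4.81, SE 0.35, adjusted p 8.41e-11), clear of the fibroblast-type pools in each pool. The calls for Prelp (log2 fold 0.99) and Ecm2 (0.59) were lost without pool 1 (adjusted p 0.523 and 0.144) and without pool 3 (0.0782 and 0.0829), and that for Ecm2 also without pool 2 (0.195). Ogn, osteoglycin, fell by 1.66 on the log2 scale, and the call for Lum (log2 fold -0.80) was lost without pool 2 (adjusted p 0.182). Aspn (460 CPM ± 40.2 against 580 ± 54.9) and Dcn (1296 ± 389 against 1454 ± 344) did not pass the test. Of the fibrillar collagens 1 of 8 was higher (Col5a2) and 2 were lower (Col3a1 and Col24a1), with the Col24a1 call lost without pool 1 (adjusted p 0.491) and the Col5a2 call without pool 3 (0.0595). Col1a1 had a log2 fold of -0.20 (adjusted p 0.457).

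Matricellular genes separated in both directions, with 6 of 18 higher and 8 lower, of which 3 and 4 held with any 1 pool left out. Thbs1, thrombospondin-1, stood at 529, 351 and 495 CPM in members against 37.4, 95.4 and 68.6 (log2 fold 2.88, SE 0.23, adjusted p 8.33e-10). Ccn1 and Ccn2, secreted proteins whose genes respond to YAP, rose by 1.87 and 2.42 on the log2 scale, while Tnxb, tenascin-X, fell by 2.01. Thbs4 (log2 fold 2.68) lost its call without pool 1 (adjusted p 0.146) and without pool 2 (0.167). Of elastic fibre genes 5 of 16 were higher, led by Ltbp2 (323, 309 and 284 CPM against 60.5, 55.2 and 46.4), and 3 were lower, among them Mfap5. Of 17 contractile and YAP or serum response genes 7 were higher and 1 lower, and 2 of the 7 held with any 1 pool left out.

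Of 18 basement membrane genes 8 fell, 2 (Col18a1 and Agrn) rose and 8 did not pass the test, with a median log2 fold of -0.42. Lama2, a laminin chain, stood at 800, 709 and 1104 CPM against 1904, 2017 and 2625 (log2 fold -1.34, SE 0.12, adjusted p 5.15e-09). Col4a1, the main collagen IV chain, stood at 244, 274 and 276 CPM against 563, 782 and 566 (log2 fold -1.28, SE 0.14, adjusted p 1.63e-07). For both genes the pools of the 2 classes did not overlap.

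Of 27 TGF-beta and BMP genes 10 were higher in members and 1 lower (Tgfbr3), with a median log2 fold of 0.49. Bmp6, a ligand, stood at 298, 184 and 236 CPM against 52.8, 36.8 and 59.7 (log2 fold 2.33, SE 0.19, adjusted p 1.13e-09). Smad6, an inhibitory Smad that BMP signals raise, stood at 357, 316 and 268 CPM against 123, 97.1 and 161 (log2 fold 1.41, SE 0.17, adjusted p 7.80e-07). Of these 10 calls 9 held with any 1 pool left out. Of the Wnt list 9 of 28 were higher and 5 lower (median log2 fold 0.61), and 4 and 2 of these held with any 1 pool left out. Lef1, far below the Rmst-type level, was still above that of fibroblast-type nuclei, with 45.4 CPM ± 14.6 against 2.02 ± 2.22 (log2 fold 3.997, SE 0.50). Sfrp2 stood at 640, 718 and 365 CPM against 142, 174 and 95.1 (log2 fold 2.09, SE 0.15, adjusted p 8.41e-11), so its member level was above both classes in each pool.

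Of the valve transcription factors 11 of 31 were higher and 5 lower. Tbx20, a T-box factor of the endocardial cushion, stood at 3239, 2761 and 3484 CPM against 1271, 1312 and 1743 (log2 fold 1.15, SE 0.10, adjusted p 4.08e-09). Nfatc1 and Meox1 rose by 1.59 and 1.38 on the log2 scale, and Msx1 by 2.64. Zeb2, Zeb1, Twist2, Tcf21 and Tbx18 fell, with the Tbx18 call lost without pool 2 (adjusted p 0.0706). Meox2, high against Rmst-type nuclei, did not pass the test here (127 CPM ± 23.1 against 177 ± 57.8, adjusted p 0.481). Guidance genes counted 11 of 29 higher and 7 lower, neuronal adhesion genes 11 of 27 and 2, catenins and cadherins 6 of 19 and 1, Notch genes 0 of 9 and 1, growth factors and receptors 5 of 23 and 4, hyaluronan genes 3 of 8 and 0, collagen processing genes 3 of 22 and 2, matrix proteases 3 of 19 and 4, fibril-associated and microfibril collagens 2 of 8 and 4, tendon genes 2 of 8 and 2, bone and mineral genes 1 of 4 and 0, integrins 3 of 16 and 1, glycosaminoglycan synthesis 4 of 20 and 3, and valve disease genes 6 of 18 and 2. The share of Notch genes called, 11.1%, was near the 10.2% of all genes tested. With any 1 pool left out, 6 of the 11 higher guidance calls, 5 of the 11 higher neuronal adhesion calls and all 6 higher cadherin calls held. So did 7 of the 11 higher transcription factor calls, 4 of the 7 lower guidance calls, 0 of the 2 lower neuronal adhesion calls, 0 of the lower Notch, cadherin and integrin calls, 0 of the 4 lower fibril-associated calls, and 0 of the 2 lower collagen processing calls. Further, 1 of the 4 higher and 1 of the 3 lower glycosaminoglycan calls, 2 of the 4 lower protease calls, 1 of the 3 higher integrin calls, 1 of the 2 tendon calls in each direction, 2 of the 4 lower growth factor calls, 3 of the 5 higher growth factor calls and 4 of the 6 higher disease calls held. Without pool 1 Col6a1, Col6a6, Col14a1, Pcolce, Dse, Chsy1 and Chst11 were lost (adjusted p 0.0562 to 0.486).

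The largest rises by the naming rule were Cyp26a1, Gm32342, Gm31641, Col9a3, Sema3e, Fmod, Kcnj15, Gprin3, Cpxm2 and Kcnma1. Cyp26a1, which breaks down retinoic acid, had 27 UMIs in members and 0 in fibroblast-type nuclei, at least 19.4-fold higher (adjusted p 0.000189), and 9 UMIs in Rmst-type nuclei. Aldh1a2, which makes retinoic acid, led the falls, with 0 UMIs in members and 165 in fibroblast-type nuclei, at least 25.5-fold lower (adjusted p 2.36e-08), and 4 in Rmst-type nuclei. Kcnma1, a calcium-activated potassium channel, stood at 411, 348 and 365 CPM against 12.1, 16.7 and 28.7 (log2 fold 4.45, SE 0.23, adjusted p 1.04e-13). Sema3e, a guidance ligand with 34 UMIs against 2, lost its call without pool 1 (adjusted p 0.101). Erbb4, a neuregulin receptor named after its values were seen, stood at 3433, 2693 and 2915 CPM against 227, 194 and 265 (log2 fold 3.75, SE 0.12, adjusted p 3.49e-18) and at 9599, 7308 and 11528 CPM in Rmst-type nuclei.

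Other large falls against fibroblast-type nuclei included Col26a1, Plxdc1, Lrrc7, Car3, 4930438E09Rik, Plppr5, Fgf10 and D630003M21Rik. Col26a1 had 0 UMIs in members and 70 in fibroblast-type nuclei, at least 10.8-fold lower. Fgf10, a growth factor of mesenchyme, stood at 14.7, 19.3 and 8.12 CPM against 173, 77.0 and 31.0 (log2 fold -2.89, SE 0.37). The calls for Plxdc1, Car3 and Plppr5 were lost without pool 1 (adjusted p 0.0598, 0.127 and 0.18). Among markers of other cells, 1 of 5 cardiomyocyte markers was higher (Myl7, lost without pool 1, adjusted p 0.0652, and without pool 2, 0.0682), the 9 markers summed to 1028, 1185 and 783 CPM in fibroblast-type nuclei, and 2 of 4 smooth muscle markers (Myocd and Tagln) were higher. Of 4 pericyte markers 1, Cspg4, was higher and 1, Notch3, lower, and the 5 markers summed to 297.9 CPM ± 90.98 in members against 427 ± 33.1. Of 2 endothelial markers 1, Tek, was lower, and the 10 markers summed to 309.5 CPM ± 36.6 against 380.0 ± 16.1. The calls for Myocd, Tagln, Cspg4, Notch3 and Tek were lost without pool 1 (adjusted p 0.0709 to 0.828), that for Myocd also without pool 2 (0.347) and that for Cspg4 also without pool 3 (0.0546). Their part in the other differences was not tested.

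EGFP RNA, which reports the Scx locus in this strain, was found in members at 21.0, 32.2 and 16.2 CPM from 10, 10 and 2 UMIs, a mean of 23.2 CPM ± 8.20. Rmst-type nuclei stood at 29.8, 23.6 and 14.0 CPM, a mean of 22.5 ± 8.001. The log2 difference of members from Rmst-type nuclei was -0.09 (SE 0.49, adjusted p 0.951), with an interval of 2 SE to each side from -1.07 to 0.89, so a difference of that size in either direction was not detectable at this depth. Fibroblast-type nuclei had 4, 1 and 0 EGFP UMIs (2.02 CPM ± 2.22), a log2 difference of 3.11 (SE 0.70, adjusted p 0.00264) that was lost without pool 2 (adjusted p 0.109). With nuclei thinned to 1000 UMIs, EGFP was present in 2.92% ± 1.07 of members and 0.319% ± 0.211 of cardiomyocyte-type nuclei, and in 7.92% and 1.70% without thinning. Scx itself had 1 UMI in the 248 members.

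Within the members, the 21 nuclei with an EGFP UMI (10, 9 and 2) were set against as many members of the same pool with none and the nearest UMI totals. Of 640 genes tested 2 were called, 0.312%, both higher with EGFP, and 30 had an unadjusted p under 0.05. Thbs1 had 30, 35 and 10 UMIs in nuclei with EGFP against 3, 1 and 1 without (log2 fold 3.82, SE 0.68, adjusted p 1.40e-05). Sfrp2 had 57, 42 and 8 UMIs against 4, 13 and 0 (log2 fold 2.77, SE 0.59, adjusted p 0.00102). Col1a1 (log2 fold 1.58, adjusted p 0.378) and Ccn2 (1.70, adjusted p 0.378) did not pass the test. The p-values of this fit rest on a spread shared among the genes tested. They do not measure each gene's own spread between pools, and pool 3 gave 2 nuclei to each side.

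Both calls depended on which nuclei were compared. Against all members without EGFP, a choice made after the values were seen and not matched on UMI total, Thbs1 stood at 859, 972 and 1978 CPM with EGFP and 503, 270 and 432 without (log2 fold 1.37, adjusted p 0.125), and Sfrp2 at 1633, 1166 and 1583 CPM against 562, 660 and 313 (log2 fold 1.30, adjusted p 0.216). Nuclei with EGFP were higher in 3 of 3 pools for both genes, by less than against the matched nuclei, and neither was among the 6 genes called. Without pool 1 neither gene was called (adjusted p 0.956 for both), without pool 2 Thbs1 was not (0.0878) and without pool 3 Sfrp2 was not (0.163).

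**Figure D5:**
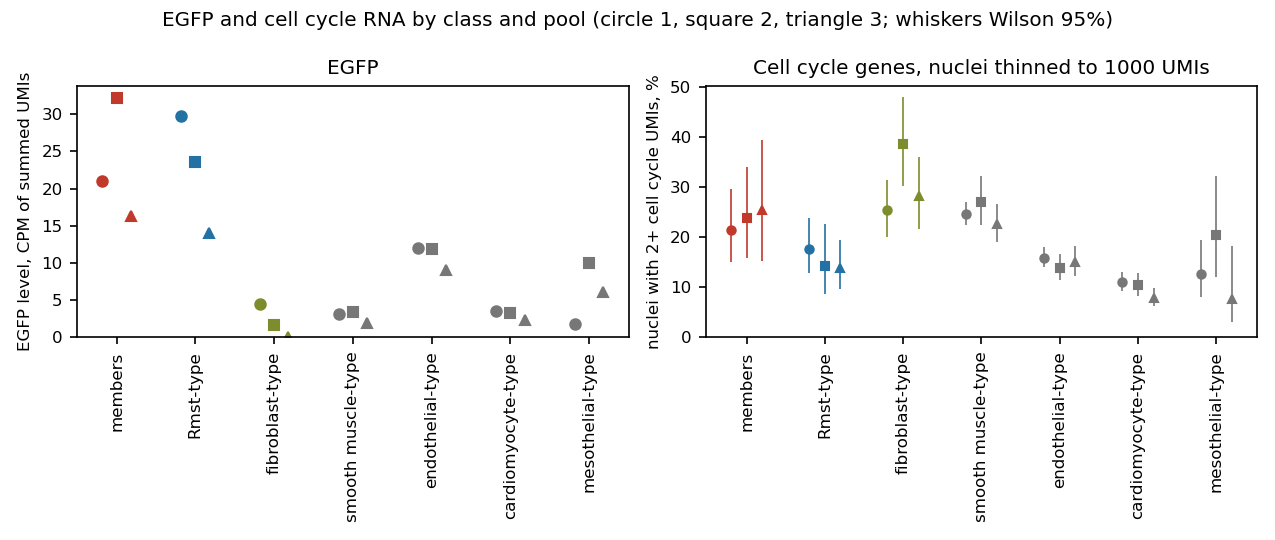
EGFP level (CPM of summed UMIs, left) and share of nuclei with at least 2 cell cycle UMIs after thinning to 1000 UMIs (right, whiskers Wilson 95%) in 7 classes, 1 mark per pool. EGFP ranges overlap between members (16.2 to 32.2) and Rmst-type nuclei (14.0 to 29.8), and the members' cycling shares, 21.5 to 25.5%, lie above the Rmst-type and below the fibroblast-type share of the same pool.

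Proliferation genes were in part higher in members than in Rmst-type nuclei. Of 19 tested cell cycle genes 11 were higher in members and 0 lower against Rmst-type nuclei (median log2 fold 1.08), while 0 were higher and 4 lower against fibroblast-type nuclei (median -0.46). Mki67, the gene of the Ki-67 proliferation antigen, stood at 48.3, 109.5 and 64.97 CPM in members, 11.7, 18.9 and 3.49 in Rmst-type nuclei (log2 fold 2.48, SE 0.36, adjusted p 8.41e-06) and 101, 258 and 64.1 in fibroblast-type nuclei (log2 fold -1.001, SE 0.23, adjusted p 0.00337). The 4 lower calls against fibroblast-type nuclei, Mki67, Top2a, Cenpf and Pola1, were all lost without pool 1 (adjusted p 0.0561 to 0.408) and without pool 2 (0.0551 to 0.667), and among the 11 higher calls Bub1 and Pola1 were lost without pool 2 (0.0557 and 0.089) and Bub1, Brip1 and Smc4 without pool 3, so 7 held with any 1 pool left out. With nuclei thinned to 1000 UMIs, 23.6% ± 2.03 of members, 15.2% ± 2.13 of Rmst-type and 30.8% ± 7.04 of fibroblast-type nuclei held at least 2 UMIs of 20 cell cycle genes, against 9.69% ± 1.66 of cardiomyocyte-type nuclei, and without thinning 54.0%, 50.3%, 65.6% and 46.2%. The member shares of 21.5%, 23.8% and 25.5% lay above the Rmst-type shares of 17.7%, 14.3% and 13.8% in each pool. The smooth muscle-type share after thinning was 24.8% ± 2.19, close to that of members. The difference between these shares was not tested.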

How the data were processed

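Gene expression was measured in nuclei of 3 pools of 1 group. The deposited values are unnormalised UMI counts for each gene in each nucleus. Cell Ranger 7.1.0 is named in the headers and, with 7.0.1 and the build GRCm39, in the submitters' processing notes, and the annotation is not given in the sources used here. Genes carry the names of the files, which list 36167 features. The pools held 49918251, 25341316 and 21254247 UMIs in 10580, 5949 and 4611 nuclei. Nuclei were kept and gated as the report states. Counts were summed per class and pool (9 sums) and tested with edgeR 4.0.16 (R 4.3.3): TMM scaling, filterByExpr, quasi-likelihood test, pool as a block because the classes of a pool share a library, Benjamini-Hochberg adjustment over all genes tested, threshold 0.05. The SE is the log2 fold divided by the root of the F statistic. Doublets were scored with Scrublet in scanpy 1.11.5 and kept; its own threshold marked 0, 0 and 1 nuclei, so the highest scores at 0.8% per 1000 nuclei were left out as an alternative. Named genes were list genes, the 10 largest rises and 10 largest falls at 20 CPM or more with 1 direction in 3 pools, and the 15 highest lowest-pool folds. Some results that these rules select are not reported here. Alternatives were DESeq2 1.42.0, other scaling and filters, no block, other gates, depth matching and leaving out each pool. The script was tested on simulated data. The members and gene lists were chosen with earlier results of these data known. Whether the pools came from separate litters is not stated, so p-values of the class comparisons measure spread between these pools. Those of the EGFP comparison rest on a spread shared among the genes tested.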

Additional observations from a re-analysis of the deposited data

How the results depend on the processing

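Calls against Rmst-type nuclei numbered 1017 in the fit reported, 635 with DESeq2 and 694 to 813 with 1 pool left out. Calls against fibroblast-type nuclei numbered 861, then 476 with DESeq2, 553 without the replicate block, and 464 to 801 with 1 pool left out, the lowest without pool 1 and 568 without pool 2. Of the genes called, 0 changed direction under any alternative run. With nuclei matched on UMI total 800 and 657 genes were called. Among members with and without EGFP the 2 calls became 0 with no filter on low counts, 1 with DESeq2, 1 without the replicate block, 0 to 2 with 1 pool left out and 6 against all members without EGFP. The log2 EGFP difference from Rmst-type nuclei, -0.09 as reported, turned positive, never past the threshold, without the replicate block (0.043), without pool 1 (the range with 1 pool left out was -0.40 to 0.31), with a gate of 8 UMIs (0.17) and with the Ctnna2 and Abi3bp positive nuclei left out of the Rmst-type class (0.20). The cycling share of members was 54.0% without thinning. Depth limits genes of under 20 UMIs and pool 3, which has 47 members. The cause of these shifts was not tested.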
